A study of Mus musculus with 14 samples.

Results

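A set of 50 lysosome genes was followed through mouse liver in which Rbbp5 had or had not been deleted and which had or had not been exposed to the endoplasmic reticulum (ER) stressor tunicamycin. They are a listed set out of the 24411 genes named in the gene count files. The list holds 2 regulators (Tfeb and Tfe3), 7 membrane and sterol transport genes, 10 proteases, 12 glycan hydrolases, 4 lipid hydrolases, 3 genes grouped here as activators (Gm2a, Psap and Grn), and 12 genes of the proton pump. Of the 50, 48 had enough reads to be tested among the 9644 genes tested in all. The other two were Tfeb, with 3 to 18 reads a sample, and Atp6v0c, with 0 reads in every sample.

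The lysosome is the acidic compartment in which a cell breaks down proteins, glycans and lipids delivered by endocytosis and autophagy. A multi-subunit proton pump, the V-ATPase, acidifies it: its V1 part hydrolyses ATP on the cytosolic side and its V0 part carries protons across the membrane. Many of its genes share an E-box-like promoter element bound by the transcription factors TFEB and TFE3, which move to the nucleus on starvation and other stresses. In liver it serves the turnover of proteins and lipid droplets in hepatocytes, and the resident macrophages, the Kupffer cells, are rich in lysosomes.

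Livers came from male littermates of 5 to 7 months. WT mice were Rbbp5 flox/flox; Alb-CRE -/-, and LKO mice (written RRBP5 LKO in the sample titles) were Rbbp5 flox/flox; Alb-CRE +/-, so both genotypes carried the floxed alleles and only LKO mice carried Cre under the albumin promoter, which is active in hepatocytes. Rbbp5 encodes a subunit common to the complexes that methylate histone H3 on lysine 4. Each mouse was injected with tunicamycin, an inhibitor of N-linked glycosylation, at 0.05 mg/kg, or with the vehicle (3% DMSO in PBS), and the liver was taken 8 h later. The samples numbered 3 WT with vehicle, 3 WT after tunicamycin, 3 LKO with vehicle and 4 LKO after tunicamycin. The LKO vehicle samples came from 4 libraries, of which libraries 3 and 4 differed from each other by little more than sampling noise (chi-square per degree of freedom 1.12, against 3.38 to 25.9 for the other pairs within groups), and their reads were summed as 1 sample.

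The libraries held 6507018 to 13519421 reads on the strand of named genes, or 1704479 to 3551398 without Rn45s, the ribosomal RNA precursor, which took 72.5 to 75.5%. The lysosome genes held 7983 to 17484 reads a library, or 0.453 to 0.530% of the reads outside Rn45s. Rbbp5 itself stood at 4.07 to 6.41 CPM (reads scaled to a common library size) in the 6 WT samples and at 1.90 to 4.15 in the 7 LKO samples, and LKO vehicle 1, at 4.15, lay inside the WT range. Reads were counted over the whole gene, so RNA of the undeleted part and of cells without Cre is included. The 5 ER stress genes used to check the treatment summed to 547 CPM on average in WT with vehicle (500.4 to 610.3) and 1498 after tunicamycin, at 1880.0, 865 and 1750.0 in WT tunicamycin 1, 2 and 3. In LKO they summed to 450.4 with vehicle (391 to 484) and 579 after tunicamycin (466.4 to 657), so that those groups overlapped. All 5 were called higher after tunicamycin in WT by edgeR, with a median log2 fold change of 1.63, while in LKO 0 were called, 2 had an unadjusted p under 0.05 and the median was 0.47. WT tunicamycin 2 thus had the lowest ER stress sum of its group, and a different library, WT tunicamycin 3, differed most from the other two in counts over all genes (chi-square per degree of freedom 25.8 and 25.9, against 6.23 between the other two). Markers of hepatocytes summed to 20080 to 31250 CPM in single samples, so the tissue matched its label. Whole liver was sequenced, so fewer cells of a type and less RNA per cell cannot be told apart.

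Between genes, levels were compared on FPKM (fragments scaled to transcript length and library size), taken from the deposited table and averaged over 14 libraries. The 2 most abundant were Lamp2 at 32.8 FPKM (29.2 to 37.4 in single libraries) and Lamp1 at 28.5 (24.3 to 34.1), the heavily glycosylated proteins that line the lysosomal membrane. Cathepsin L, encoded by Ctsl, followed at 21.3 FPKM (14.6 to 30.6). Below these came Psap at 9.11, the precursor of the saposins that present sphingolipids to their hydrolases, the aspartic protease gene Ctsd at 8.73, the cysteine protease genes Ctsh at 7.91 and Ctsb at 7.09, and Lipa at 6.98, the acid lipase for cholesteryl esters and triglycerides. The ranges of Lamp1 and Lamp2 overlapped, as did those of these 5 lower genes, and the 5 most abundant genes made up 45.5 to 49.5% of the summed FPKM of the 50 in each library. At the other end, 11 genes had a mean FPKM below 1. The lowest were Tfeb at 0.172, Idua at 0.190 and Sgsh at 0.223, the last being a pair of heparan sulphate hydrolases, and Gla at 0.235, the α-galactosidase gene. The FPKM column of LKO vehicle library 2 summed to 99390 over all genes, against 156500 to 169700 in the others.

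**Figure D1:**
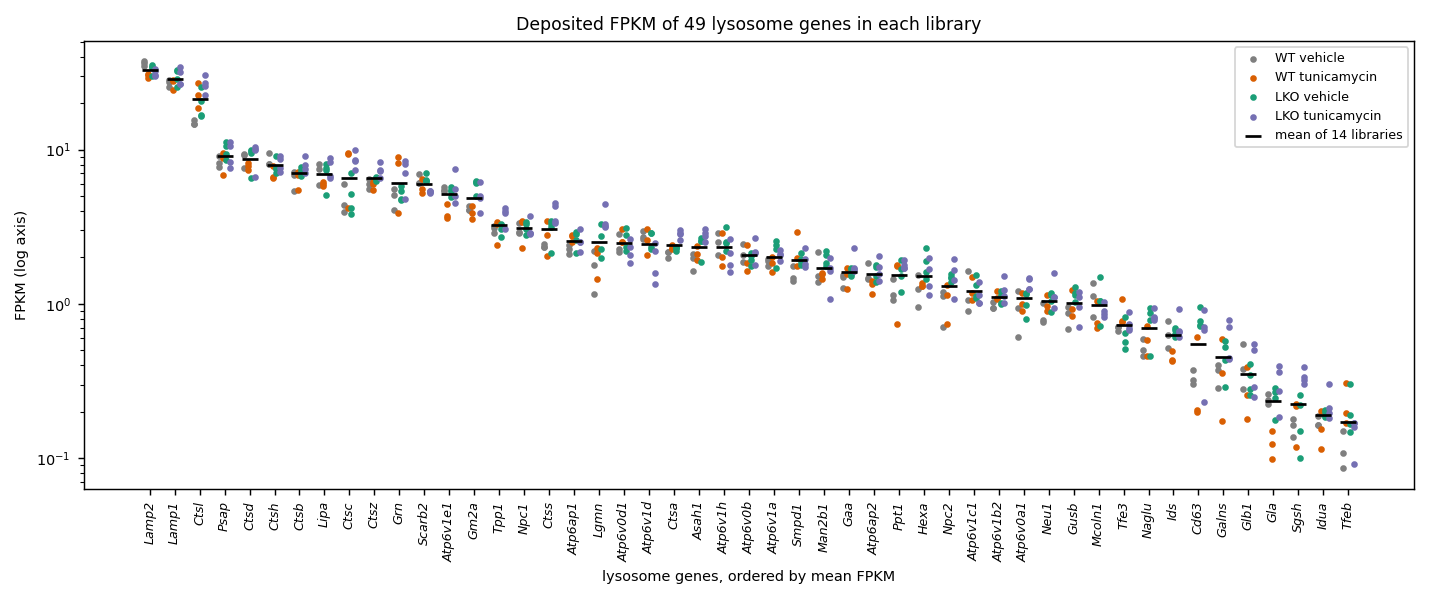
Deposited FPKM (log axis) of 49 lysosome genes in each of 14 libraries, coloured by group, with genes ordered by their mean FPKM, drawn as black bars, and Atp6v0c left out. Lamp2, Lamp1 and Ctsl stand at 21.3 FPKM or more on average, and the glycan hydrolases Gla, Sgsh and Idua lie below 0.24.

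The promoter element of the TFEB family was looked for because it is the known common feature of this gene set. RefSeq windows (GRCm38.p6, 250 bases before to 50 after a listed start) were searched for CACGTG and for the longer TCACGTGA, which contains it. Each reads the same on both strands. Promoter windows matched 42 of the 50 genes, and CACGTG lay in those of 14 of the 42 (33.3%), against 8.09% of 27025 genes with windows. The longer TCACGTGA lay in 6 of 42 (14.3%), namely Ctsa, Ctsd, Mcoln1, Atp6v0d1, Atp6v1a and Gla, against 1.12% of all genes. Counting only the part before the start left 13 and 5 of the 42 genes. No windows were matched for Galns, Atp6v1h, Ctsb, Ctsh, Atp6v1c1, Npc1, Atp6v1b2 and Asah1. A match of letters describes the sequence and not binding.

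Sequences are shown for the proteases Ctsl and Lgmn, which had the smallest p of the proteases in the comparisons below, and for 4 genes with the longer motif. Each is given 5′ to 3′ on the gene's strand, with the motif in capitals. All stretches other than that of Ctsd lie within the annotated span of a gene and are short for that reason (the gene itself for Ctsl, Lgmn, Ctsa and Atp6v1a, and the neighbour Hnrnph2 for Gla).
Ctsl, chr13:64370739-64370768, minus strand: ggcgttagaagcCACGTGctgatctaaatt
Lgmn, chr12:102439124-102439153, minus strand: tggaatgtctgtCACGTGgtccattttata
Ctsa, chr2:164833749-164833772, plus strand: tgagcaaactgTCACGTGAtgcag
Ctsd, chr7:142387894-142387951, minus strand: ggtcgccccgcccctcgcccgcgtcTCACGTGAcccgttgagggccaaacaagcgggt
Atp6v1a, chr16:44139373-44139402, minus strand: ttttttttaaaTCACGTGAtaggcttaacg
Gla, chrX:134601215-134601244, minus strand: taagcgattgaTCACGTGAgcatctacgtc
Gla, chrX:134601182-134601211, minus strand: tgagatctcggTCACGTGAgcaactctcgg
The first capital lies 236 bases before the listed start in Ctsl, 49 in Lgmn, 13 in Ctsa, 99 in Ctsd and 132 in Atp6v1a. Gla has 2 copies, 228 and 195 bases before the listed start. Ctsa also has a second copy, not printed, whose first base lies 4 bases after the listed start.

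Members with and without CACGTG had like values after tunicamycin. In WT, the 14 genes with the motif had a median log2 fold change of 0.15, and 11 were higher. The 26 tested genes with a window lacking it had a median of 0.15, and 19 were higher. The medians in LKO were 0.15 and 0.10. The 6 genes with the longer TCACGTGA had lower medians, of 0.04 in WT and 0.03 in LKO, with 3 of 6 higher in each.

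The 5 comparisons were of tunicamycin with vehicle in each genotype, of LKO with WT in each treatment, and of the tunicamycin effects between the genotypes (the interaction). The comparisons share samples with each other. Fold changes and p-values came from edgeR's quasi-likelihood test on read counts, and calls were made where p, adjusted by Benjamini-Hochberg over the 9644 genes, was under 0.05. CPM values take the reads on tested genes as the library and are scaled by TMM.

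Tunicamycin raised Ctsl in WT liver by 0.75 on the log2 scale (SE 0.16, 1.68-fold, edgeR adjusted p = 0.0465). Among the 48 tested genes of the list, Ctsl was the only gene called in any of the 5 comparisons. That is 1 of the 48 tested genes, against 0.363% of all genes called in either direction and 0.29% called higher. In WT after tunicamycin, 6 of the 48 (12.5%) were higher at an unadjusted p under 0.05 and 0 lower, against 7.93% and 6.85% of all genes. These were Ctsl, Ctsc, Grn, Smpd1, Tfe3 and Ctsz. Of the 48, 37 had a positive log2 fold change, with a median of 0.15 against 0.01 over all genes. With total count scaling 20 were positive and the median was -0.04, while the median over all genes moved to -0.18, so that the distance between the medians was 0.13 under both scalings. CPM values were without overlap between vehicle and tunicamycin for 8 of 48 genes (16.7%), against 17.3% of all genes. Leaving out WT tunicamycin 3 gave 4 calls (Ctsl, Ctsc, Grn and Smpd1) among 49 tested lysosome genes, and 615 calls among all 9941 genes tested. Calls thus rose over all genes in that fit, and not only in the lysosome genes. Leaving out WT tunicamycin 1 or WT tunicamycin 2 gave 0 lysosome calls, with 0 and 34 genes called in all. Total count scaling also gave 0, with 148 genes called in all. Without WT tunicamycin 2, the median fell to 0.06, with 32 genes positive.

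In LKO liver, none of the 48 genes was called after tunicamycin by edgeR, or by DESeq2, against 0.0311% of all genes by edgeR. With an unadjusted p under 0.05, 7 (14.6%) were higher and 2 (4.17%) lower, against 5.83% and 6.33% of all genes. Among the 7 higher genes were 5 proteases (Lgmn, Ctss, Ctsc, Tpp1 and Ctsl), with Sgsh and Grn. The 2 lower ones were Atp6v1d and Scarb2. Of the 48, 34 were positive, with a median log2 fold change of 0.11 against 0.005 over all genes. Without LKO vehicle 1, whose Rbbp5 lay inside the WT range, 31 were positive and the median was 0.05, against 0.01 over all genes. The groups did not overlap for 6 genes (12.5%), against 11.6% of all genes.

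With vehicle, LKO and WT liver differed in none of the 48 genes by edgeR's adjusted p, nor by DESeq2, against 0.0415% of all genes called by edgeR. In LKO, 6 genes (12.5%) were higher at an unadjusted p under 0.05, against 4.71% of all genes, and 0 were lower, against 3.44%. These were Cd63, Gm2a, Ctsl, Lgmn, Naglu and Hexa. The median log2 fold change of the 48 was 0.04, with 31 positive, and groups did not overlap for 10 genes (20.8%), against 15.1% of all genes.

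After tunicamycin, LKO and WT liver again differed in none of the 48 by edgeR's adjusted p, nor by DESeq2, against 0.861% of all genes called by edgeR. At an unadjusted p under 0.05, 6 (12.5%) were higher in LKO (Lgmn, Gla, Idua, Sgsh, Asah1 and Ctss) and 5 (10.4%) lower (Scarb2, Atp6v1d, Atp6v0d1, Tfe3 and Smpd1), against 7.55% and 8.24% of all genes. The median was 0.07 with 29 positive, against -0.01 over all genes, and with total count scaling it was 0.22 with 38 positive, against 0.14 over all genes. Without WT tunicamycin 3 the median was -0.04, with an unadjusted p under 0.05 for 2 higher genes and 6 lower ones. Without WT tunicamycin 2 it was 0.13, and 1 gene, Lgmn, was called, with 183 of 9951 genes called in all. Groups did not overlap for 8 genes (16.7%), against 12.9% of all genes. The interaction called 0.0% of all genes, and 0 lysosome genes by edgeR or DESeq2. At an unadjusted p under 0.05 it held 1 lysosome gene with a positive term (Gla) and 2 with a negative one (Smpd1 and Atp6v0d1), against 2.13% and 2.79% of all genes.

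**Figure D2:**
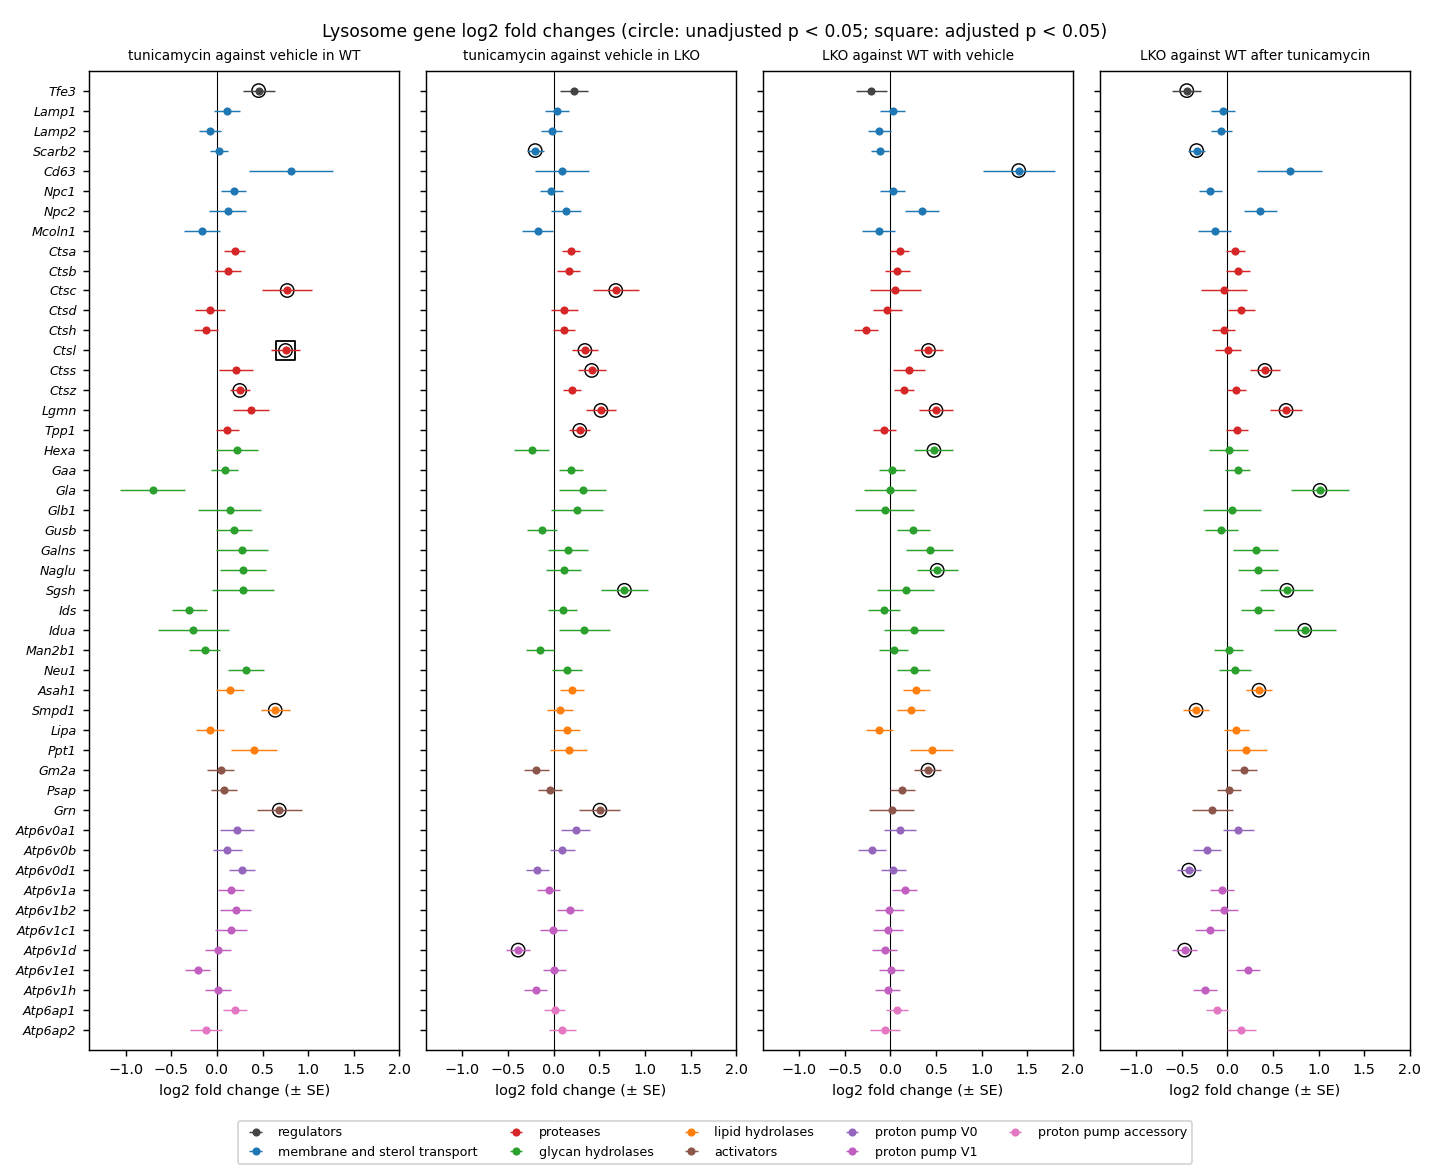
Log2 fold change (x axis, with SE as bars) of the 48 tested lysosome genes in 4 comparisons, coloured by role. Circles mark an unadjusted p under 0.05 and the square an adjusted p under 0.05, which only Ctsl in WT reached. Protease values all lie above 0 for tunicamycin in LKO, and 8 of the 11 proton pump values lie below 0 for LKO against WT after tunicamycin.

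Most proteases had higher values after tunicamycin. In LKO all 10 had a positive log2 fold change (0.11 to 0.68, median 0.24, 5 with an unadjusted p under 0.05), under TMM, DESeq2 size factors and total count scaling alike, and 9 of 10 without LKO vehicle 1. In WT, 8 of 10 were positive, with a median of 0.20. There it was 5 of 10 with total count scaling, and 6 of 10 with a median of 0.13 without WT tunicamycin 2. Ctsl (chr13:64361890-64370772), whose product degrades proteins in the lysosome and is a main cysteine protease of liver, stood at 72.5, 76.5 and 80.5 CPM in the WT vehicle samples, at 140.2, 139 and 107 in WT after tunicamycin, at 108, 115 and 83.4 in LKO with vehicle and at 139, 133, 138 and 107 in LKO after tunicamycin. The WT means were 76.5 ± 4.01 (SD, n = 3) and 129 ± 19.1 (SD, n = 3). Every WT sample with tunicamycin and every LKO sample lay above all 3 WT vehicle samples, and both tunicamycin groups overlapped with LKO vehicle. In LKO, Ctsl was 0.34 higher on the log2 scale after tunicamycin (SE 0.14, edgeR adjusted p = 0.356), and with vehicle it was 0.42 higher in LKO than in WT (SE 0.16, edgeR adjusted p = 0.499). The interaction term was -0.41 (SE 0.21, edgeR adjusted p = 0.981). The WT call held in 4 of the 14 fits that left out a sample or library, which were those without WT tunicamycin 3, LKO vehicle 2, LKO vehicle libraries 3 and 4, or LKO vehicle library 4 alone. It was lost in the other 10, with edgeR adjusted p from 0.0594 to 0.234, and the log2 fold change stayed between 0.69 and 0.87 in all 14.

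Lgmn (chr12:102394082-102439728) encodes legumain, the asparaginyl endopeptidase that trims cathepsins. It stood at 12.7, 11.5 and 8.45 CPM in WT with vehicle, 14.3, 17.4 and 10.96 in WT after tunicamycin, 12.4, 18.6 and 15.1 in LKO with vehicle, and 23.2, 22.9, 19.2 and 23.6 in LKO after tunicamycin. The 4 LKO samples with tunicamycin were the highest 4 of the 13, and the other 3 groups overlapped. Lgmn was 0.64 higher on the log2 scale in LKO than in WT after tunicamycin (SE 0.17, edgeR adjusted p = 0.0909) and 0.50 higher with vehicle (SE 0.19, edgeR adjusted p = 0.499). Tunicamycin went with a value 0.52 higher in LKO (SE 0.16, edgeR adjusted p = 0.247). The first of these passed the threshold with total count scaling (edgeR adjusted p = 0.0271), with no filter on low counts (0.0193) and without WT tunicamycin 2 (0.0422).

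Other proteases were higher after tunicamycin without passing. Ctsc, encoding the dipeptidyl peptidase that activates granule serine proteases of immune cells, stood at 33.8, 21.8 and 24.6 CPM in WT with vehicle and 53.3, 59.2 and 24.5 after tunicamycin. In LKO it stood at 26.8, 36.7 and 19.99 with vehicle and 52.8, 47.6, 41.7 and 36.4 after tunicamycin. WT tunicamycin 3 lay among the vehicle samples, and the LKO groups overlapped only between 36.4 and 36.7. Its log2 fold change was 0.77 in WT (SE 0.28, edgeR adjusted p = 0.201, and 1.07 with adjusted p = 0.00985 without WT tunicamycin 3) and 0.68 in LKO (SE 0.25, edgeR adjusted p = 0.310). Ctss, the cathepsin of antigen-presenting cells, was 0.42 higher after tunicamycin in LKO (SE 0.16, edgeR adjusted p = 0.308) and 0.41 higher in LKO than in WT after tunicamycin (SE 0.17, edgeR adjusted p = 0.241). Tpp1, a tripeptidyl peptidase, was 0.29 higher in LKO after tunicamycin (SE 0.12, edgeR adjusted p = 0.347). Ctsz, a carboxypeptidase, was 0.25 higher in WT (SE 0.11, edgeR adjusted p = 0.306), and was slightly lower there in the deposited FPKM. Ctsa, Ctsb, Ctsd and Ctsh had no unadjusted p under 0.05 in any comparison.

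Several of these proteases are also made by macrophages, so markers of these cells are given here. The 12 Kupffer cell and macrophage markers summed to 79.4 CPM on average in WT with vehicle (72.0 to 83.5), 89.0 in WT after tunicamycin (76.3 to 100.7), 78.3 in LKO with vehicle (55.1 to 92.1) and 119 in LKO after tunicamycin (82.3 to 160.4). None of the 12 was at 0 in every sample. In LKO all 12 had a positive log2 fold change after tunicamycin, with a median of 0.50 and 7 with an unadjusted p under 0.05, and in WT 11 of 12, with a median of 0.24 and 0 with such a p. None of the 12 was called by edgeR in either genotype. The marker sums in LKO tunicamycin 1, 2, 3 and 4 were 82.3, 160.4, 90.4 and 142.9 CPM. With vehicle, 4 of the 12 markers were higher in LKO than in WT and 8 lower, with a median of -0.04. In that comparison 7 of 10 proteases were higher. The 5 neutrophil and monocyte markers summed to 1.32 CPM on average in WT with vehicle, 5.27 in WT after tunicamycin, 3.21 in LKO with vehicle and 6.63 in LKO after tunicamycin. The part of these cells in the protease values was not tested.

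**Figure D3:**
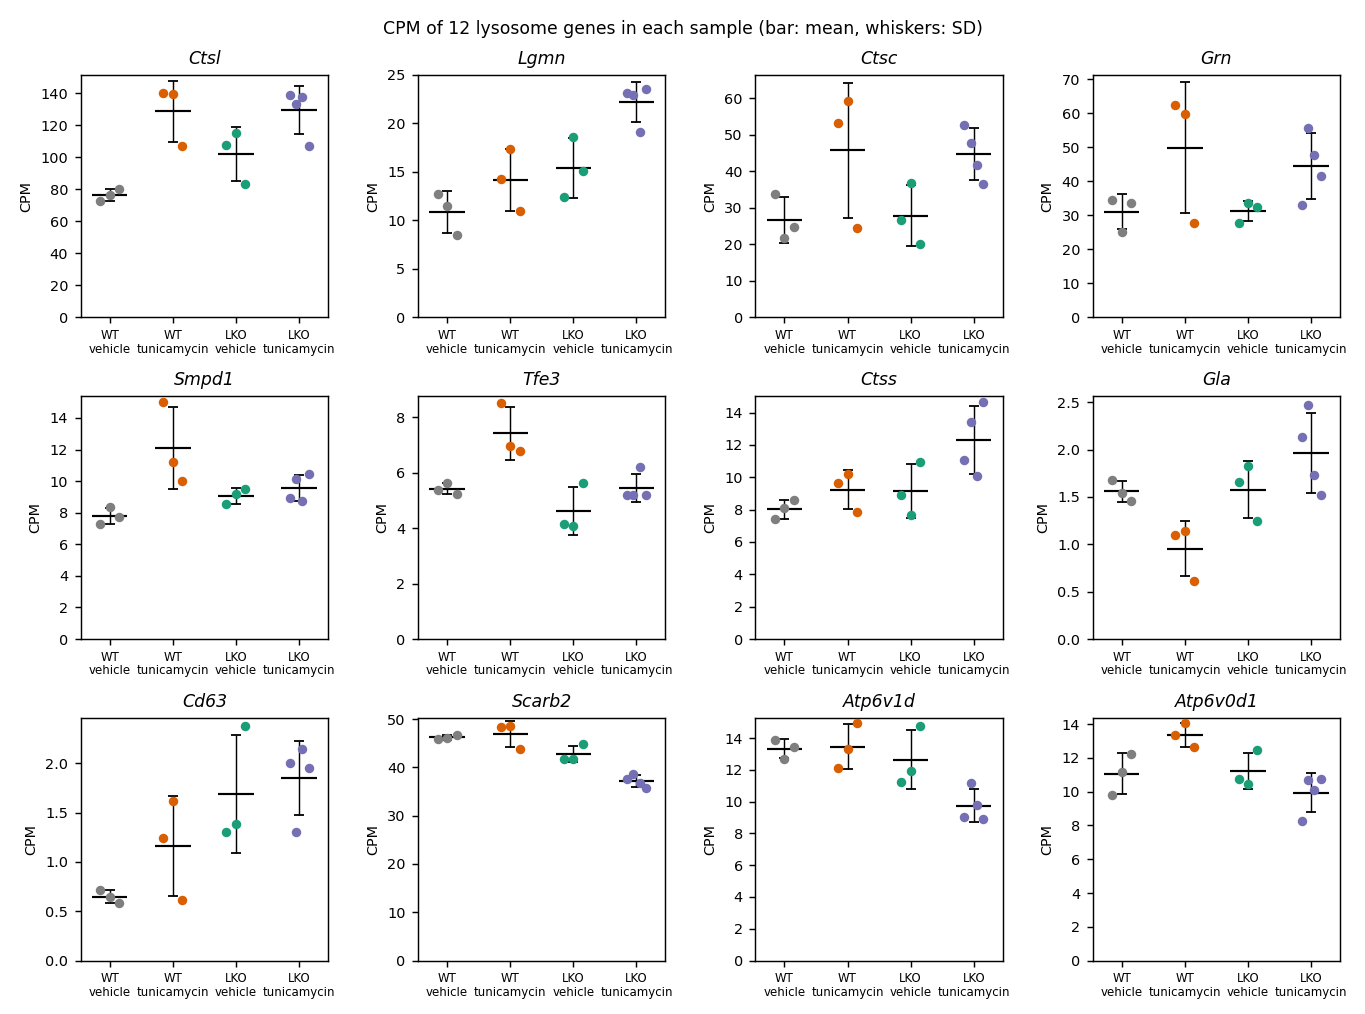
CPM (y axis, from 0) of 12 lysosome genes in each of 13 samples by group, with the group mean as a bar and the SD as whiskers. Ctsl lies lowest in the 3 WT vehicle samples, Lgmn highest in the 4 LKO samples with tunicamycin, and in Ctsc and Grn 1 WT tunicamycin sample lies among the vehicle samples.

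The glycan hydrolases cut sugars from glycoproteins, glycolipids and glycosaminoglycans one linkage at a time. Of the 12, 11 were higher in LKO than in WT after tunicamycin, with a median log2 fold change of 0.21 and 3 with an unadjusted p under 0.05, and 9 of 12 with vehicle, with a median of 0.21. Without WT tunicamycin 3, 9 of 12 were higher after tunicamycin and 1 had such a p. Gla (chrX:134588169-134601005), with 4 to 25 reads a sample, stood at 1.68, 1.54 and 1.46 CPM in WT with vehicle, 1.10, 1.14 and 0.617 in WT after tunicamycin, 1.66, 1.82 and 1.25 in LKO with vehicle, and 2.13, 2.47, 1.73 and 1.52 in LKO after tunicamycin. The 3 WT tunicamycin samples were the lowest 3 of the 13, and the other groups overlapped. Gla was 1.02 higher on the log2 scale in LKO than in WT after tunicamycin (SE 0.32, edgeR adjusted p = 0.145), and the interaction term was also 1.02 (SE 0.44, edgeR adjusted p = 0.938).

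Sgsh, the sulphamidase of heparan sulphate breakdown, had 9 to 29 reads a sample. It stood at 1.32, 1.67 and 1.60 CPM in WT with vehicle, 1.79, 2.43 and 1.39 in WT after tunicamycin, 2.13, 2.12 and 1.07 in LKO with vehicle, and 3.06, 3.25, 2.45 and 3.04 in LKO after tunicamycin. The 4 LKO tunicamycin samples were the highest 4. Its log2 value was 0.78 higher after tunicamycin in LKO (SE 0.26, edgeR adjusted p = 0.277) and 0.65 higher in LKO than in WT after tunicamycin (SE 0.29, edgeR adjusted p = 0.284). Idua, the iduronidase gene with 4 to 28 reads, was 0.85 higher in the same comparison of genotypes (SE 0.34, edgeR adjusted p = 0.238).

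Naglu, which removes N-acetylglucosamine from heparan sulphate, stood at 2.75, 2.95 and 2.04 CPM in WT with vehicle, 2.75, 4.21 and 2.62 in WT after tunicamycin, 3.91, 4.31 and 3.03 in LKO with vehicle, and 3.86, 4.03, 4.08 and 4.02 in LKO after tunicamycin. The vehicle groups did not overlap, with LKO higher by 0.51 on the log2 scale (SE 0.22, edgeR adjusted p = 0.567). Hexa, a subunit gene of β-hexosaminidase, was higher by 0.48 in LKO with vehicle (SE 0.21, edgeR adjusted p = 0.583), also with no overlap. Gaa, Glb1, Gusb, Galns, Ids, Man2b1 and Neu1 had no unadjusted p under 0.05 in any comparison.

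Among the 4 lipid hydrolases, Smpd1 was the gene nearest to the threshold in WT. It encodes acid sphingomyelinase (chr7:105554360-105558389), which turns sphingomyelin into ceramide. It stood at 7.30, 8.33 and 7.72 CPM in WT with vehicle, 15, 11.2 and 10.03 in WT after tunicamycin, 8.53, 9.20 and 9.49 in LKO with vehicle, and 8.93, 10.2, 8.76 and 10.4 in LKO after tunicamycin. All 3 WT tunicamycin samples lay above the WT vehicle samples, and the LKO groups overlapped with each other. The log2 fold change was 0.64 in WT (SE 0.16, edgeR adjusted p = 0.0827, and 0.76 with adjusted p = 0.0113 without WT tunicamycin 3). LKO against WT after tunicamycin gave a lower value (log2 fold change -0.34, SE 0.14, edgeR adjusted p = 0.254), and the interaction term was -0.57 (SE 0.21, edgeR adjusted p = 0.935).

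Asah1, the acid ceramidase gene and thus the next step after Smpd1, stood at 11.4, 13.4 and 12.4 CPM in WT with vehicle, 12.1, 16.4 and 12.7 in WT after tunicamycin, 12.3, 16.4 and 16.1 in LKO with vehicle, and 17.2, 17.1, 16.1 and 19.2 in LKO after tunicamycin. The last group overlapped with both tunicamycin in WT and vehicle in LKO, and lay above WT with vehicle. Asah1 was 0.35 higher on the log2 scale in LKO than in WT after tunicamycin (SE 0.14, edgeR adjusted p = 0.240). Lipa and Ppt1, a thioesterase that removes palmitate from proteins, had no unadjusted p under 0.05.

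Of the activators, Grn and Gm2a reached an unadjusted p under 0.05. Grn (chr11:102430507-102436809) encodes progranulin, a secreted and lysosomal protein cut into granulins. It stood at 34.4, 25.2 and 33.7 CPM in WT with vehicle, 62.3, 59.7 and 27.6 in WT after tunicamycin, 27.8, 33.6 and 32.4 in LKO with vehicle, and 33.0, 55.7, 47.8 and 41.5 in LKO after tunicamycin. As in Ctsc, WT tunicamycin 3 lay among the vehicle samples. The log2 fold change was 0.68 in WT (SE 0.25, edgeR adjusted p = 0.199, and 0.97 with adjusted p = 0.00438 without WT tunicamycin 3) and 0.51 in LKO (SE 0.23, edgeR adjusted p = 0.379). Gm2a, the activator that lifts GM2 ganglioside to its hydrolase, stood at 33.6, 36.6 and 33.8 CPM in WT with vehicle, 29.6, 37.5 and 40.1 in WT after tunicamycin, 49.05, 39.6 and 49.9 in LKO with vehicle, and 39.8, 34.1, 49.2 and 38.4 in LKO after tunicamycin. LKO lay above WT in every vehicle sample, by 0.41 on the log2 scale (SE 0.15, edgeR adjusted p = 0.499), and the tunicamycin groups overlapped. Psap had no unadjusted p under 0.05.

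The membrane and sterol transport genes showed no common direction. Lamp1, Lamp2, Npc1 and Npc2, the last a pair that moves cholesterol out of the lysosome, and Mcoln1, a lysosomal calcium channel, had no unadjusted p under 0.05 in any comparison. Scarb2 (chr5:92441311-92505657), which encodes LIMP-2, the carrier of glucocerebrosidase to the lysosome, stood at 45.9, 46.0 and 46.8 CPM in WT with vehicle, 48.3, 48.6 and 43.8 in WT after tunicamycin, 41.7, 41.8 and 44.7 in LKO with vehicle, and 37.6, 38.6, 36.8 and 35.7 in LKO after tunicamycin. In CPM, the LKO tunicamycin samples were the lowest 4 of the 13, and all 7 LKO samples but 1, LKO vehicle 3 at 44.7, lay below every WT sample. The deposited FPKM did not part the genotypes in this way. There the vehicle libraries overlapped, at 6.03 to 6.93 in WT and 6.22 to 7.00 in LKO. WT tunicamycin 3, at 5.26 FPKM, lay within the LKO tunicamycin range of 5.22 to 5.43. The log2 difference from WT after tunicamycin was -0.34 (SE 0.09, edgeR adjusted p = 0.102), and tunicamycin in LKO gave -0.20 (SE 0.09, edgeR adjusted p = 0.392).

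Cd63 (chr10:128896231-128912822), a tetraspanin of late endosomes and exosomes, had 4 to 40 reads a sample. It stood at 0.719, 0.641 and 0.583 CPM in WT with vehicle, 1.24, 1.62 and 0.617 in WT after tunicamycin, 1.30, 1.39 and 2.37 in LKO with vehicle, and 1.999, 1.30, 2.14 and 1.95 in LKO after tunicamycin. In CPM, every LKO sample lay above every WT vehicle sample. In the deposited FPKM, LKO tunicamycin 2, at 0.231, lay below the WT vehicle libraries (0.305 to 0.371). With vehicle, LKO was higher by 1.41 on the log2 scale (SE 0.39, edgeR adjusted p = 0.313). Group means of marker sums follow for WT with vehicle, WT with tunicamycin, LKO with vehicle and LKO with tunicamycin. Markers of bile duct cells summed to 10.2, 27.7, 37.8 and 62.8 CPM. Those of stellate cells and fibroblasts summed to 89.7, 105, 133 and 141. Both sums had the same order of group means as Cd63 in CPM. In the deposited FPKM the Cd63 means were 0.332, 0.339, 0.795 and 0.634, so that LKO with tunicamycin lay below LKO with vehicle. Spp1, at 6.96, 22.4, 32.6 and 58.15, made up most of the bile duct sum. Singly, Spp1, Dcn, Pdgfrb and Col3a1 had the CPM order of Cd63, and Sox9, Krt7, Krt19, Epcam, Lrat, Reln and Col1a1 did not. The part of these cells in the Cd63 values was not tested.

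Of the regulators, Tfe3 (chrX:7762530-7775202) had its highest values in WT after tunicamycin. It stood at 5.39, 5.64 and 5.25 CPM in WT with vehicle, 8.53, 6.97 and 6.79 in WT after tunicamycin, 4.15, 4.09 and 5.64 in LKO with vehicle, and 5.20, 5.21, 6.22 and 5.21 in LKO after tunicamycin. The 3 WT tunicamycin samples were the highest 3 of the 13. The log2 fold change was 0.46 in WT (SE 0.18, edgeR adjusted p = 0.224), and LKO differed from WT after tunicamycin by -0.44 (SE 0.16, edgeR adjusted p = 0.199). The interaction term was -0.24, with an unadjusted p of 0.333, so a difference between the genotypes in response was not shown. Tfeb, too low to test, stood at 0.390 to 1.78 CPM in single samples.

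The proton pump genes had mostly positive values after tunicamycin in WT and no common direction in LKO. Of the 11 tested, 9 had a positive log2 fold change after tunicamycin in WT (median 0.15, and 4 of 11 with total count scaling) and 6 in LKO (median 0.01, and 4 of 11 with total count scaling). For LKO against WT under tunicamycin, 8 of 11 were lower, with a median of -0.11 and 2 with an unadjusted p under 0.05. With total count scaling 5 of 11 were lower and the median was 0.04, against 0.14 over all genes, so that the distance from all genes was -0.10 under both scalings. Without WT tunicamycin 3 it was again 8 of 11, and without WT tunicamycin 2 it was 6 of 11. Atp6v1d (chr12:78842982-78862008), a subunit of the central stalk, stood at 13.9, 12.7 and 13.4 CPM in WT with vehicle, 12.1, 13.3 and 14.97 in WT after tunicamycin, 11.3, 11.9 and 14.8 in LKO with vehicle, and 9.06, 11.2, 9.78 and 8.90 in LKO after tunicamycin. The LKO tunicamycin samples were the lowest 4 of the 13. The log2 difference from WT after tunicamycin was -0.47 (SE 0.14, edgeR adjusted p = 0.117), and tunicamycin in LKO gave -0.39 (SE 0.13, edgeR adjusted p = 0.275).

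Atp6v0d1 (chr8:105524461-105566064), the V0 subunit that couples the membrane ring to the stalk, stood at 9.82, 11.2 and 12.2 CPM in WT with vehicle, 13.3, 14.1 and 12.7 in WT after tunicamycin, 10.8, 10.4 and 12.5 in LKO with vehicle, and 8.26, 10.7, 10.1 and 10.8 in LKO after tunicamycin. The 3 WT tunicamycin samples were the highest 3, and the other groups overlapped. LKO differed from WT after tunicamycin by -0.42 on the log2 scale (SE 0.13, edgeR adjusted p = 0.137), and the interaction term was -0.45 (SE 0.19, edgeR adjusted p = 0.935). The remaining 9 tested pump genes had no unadjusted p under 0.05 in any comparison, with group means from 4.95 to 20.6 CPM. The smallest p among these 9 was that of Atp6v1h, a regulatory V1 subunit, in LKO against WT after tunicamycin (log2 fold change -0.25, SE 0.13, edgeR adjusted p = 0.383). It stood at 12.4, 15.5 and 13.7 CPM in WT with vehicle, 13.1, 13.1 and 15.9 in WT after tunicamycin, 13.3, 13.4 and 14.1 in LKO with vehicle, and 10.3, 10.9, 13.6 and 12.3 in LKO after tunicamycin, with overlap in each comparison. Beyond the genes already given, those with the smallest p of V0, V1 or the accessory genes in a comparison follow. Atp6v0a1, of the proton channel, stood at 11.3, 14.3 and 7.72 CPM in WT with vehicle, 13.3, 13.1 and 12.5 in WT after tunicamycin, 10.2, 14.02 and 11.5 in LKO with vehicle, and 15.2, 14.1, 12.7 and 14.7 in LKO after tunicamycin. Atp6v0b, of the membrane ring, stood in the same order of groups at 6.35, 5.51 and 5.39, at 5.78, 6.49 and 6.48, at 4.50, 4.82 and 5.52, and at 4.80, 5.33, 5.20 and 5.97 CPM. For both genes the 2 groups overlapped in each of the 4 comparisons. Atp6v1a, the catalytic subunit, stood in that order at 14.2, 17.8 and 16.5, at 17.1, 20.1 and 16.8, at 14.7, 18.8 and 20.1, and at 16.6, 18.5, 16.7 and 17.4 CPM. Atp6v1e1, of the outer stalk, stood at 19.3, 22.0 and 19.97, at 15.3, 19.5 and 18.4, at 21.1, 18.6 and 22.0, and at 18.9, 19.9, 24.7 and 19.0 CPM. These groups overlapped as well. Of the accessory genes, Atp6ap1 stood at 10.54, 11.2 and 11.8, at 11.97, 13.1 and 13.3, at 11.6, 11.97 and 11.5, and at 11.9, 11.4, 13.6 and 10.3 CPM, and only its WT groups did not overlap. Atp6ap2 stood at 8.62, 8.46 and 7.58, at 7.43, 8.27 and 7.10, at 7.70, 6.64 and 9.26, and at 7.20, 8.07, 10.3 and 8.03 CPM, with overlap throughout.

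The roles also differed in how samples of a group spread. For each sample, the median over a role's genes of the log2 level relative to the WT vehicle mean was taken. For the 10 proteases it was 0.32, 0.36, 0.37 and 0.34 in the 4 LKO tunicamycin samples, 0.12, 0.34 and 0.00 in the WT tunicamycin samples, 0.04, 0.11 and 0.10 in LKO with vehicle, and 0.06, -0.02 and 0.03 in WT with vehicle. The LKO tunicamycin samples lay close together and above all others but WT tunicamycin 2. For the 12 glycan hydrolases the LKO tunicamycin samples gave 0.31, 0.22, 0.28 and 0.40, the LKO vehicle samples 0.15, 0.17 and 0.21, the WT tunicamycin samples 0.12, 0.33 and -0.05, and the WT vehicle samples -0.04, 0.12 and 0.02. Every LKO sample lay above all 3 WT vehicle samples. For the 11 pump genes no group stood apart from the others, with values from -0.13 to 0.23. WT tunicamycin 2 was the highest sample of its group for all 3 lists.

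**Figure D4:**
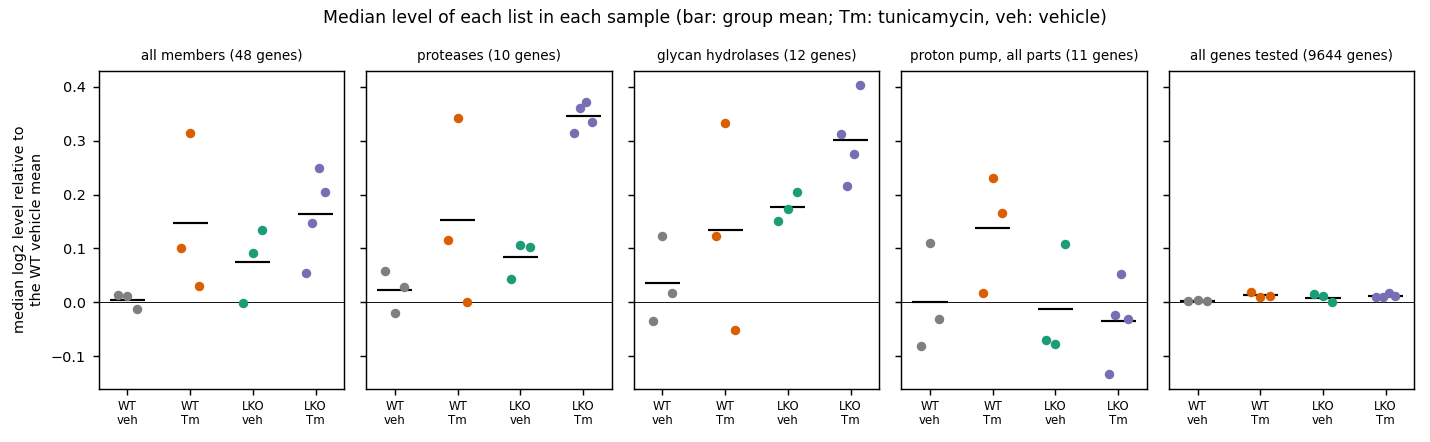
Median over the genes of a list of the log2 level relative to the WT vehicle mean (y axis), for all 48 tested lysosome genes, 3 roles and all 9644 tested genes, with 1 point a sample and bars for group means. The 4 LKO tunicamycin samples sit between 0.32 and 0.37 for proteases, pump genes spread around 0, and the median of all genes stays between 0.00 and 0.02.

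Lysosome genes outside the 50 were counted in 2 further lists. Of 45 tested other hydrolases, membrane proteins and pump isoforms (52 in the files), 25 were positive after tunicamycin in WT (median 0.01) and 28 in LKO (median 0.06). With an unadjusted p under 0.05 there were 2 higher (4.44%) and 1 lower (2.22%) in WT, against 7.93% and 6.85% of all genes. In LKO there were 4 higher (8.89%) and 2 lower (4.44%), against 5.83% and 6.33% of all genes. Among the genes counted here, 1 was called, in LKO against WT after tunicamycin, where 0.861% of all genes were called. This was Atp6v0d2, a tissue-restricted isoform of the V0 subunit d found in osteoclasts and macrophages, which stood at 0.826, 1.78 and 0.926 CPM in WT after tunicamycin and at 4.13, 4.55, 3.77 and 2.93 in LKO, a log2 difference of 1.71 (SE 0.38, edgeR adjusted p = 0.0459). In WT and LKO with vehicle it stood at 0.599, 1.67 and 2.19 and at 1.78, 3.14 and 1.84. The 4 LKO tunicamycin samples thus overlapped only with LKO vehicle 2. Sort1, a sorting receptor, was 0.82 higher in the same comparison (SE 0.21, edgeR adjusted p = 0.0718). Acp2, lysosomal acid phosphatase, was 0.50 higher after tunicamycin in WT (SE 0.17, edgeR adjusted p = 0.189) and 0.38 higher in LKO (SE 0.15, edgeR adjusted p = 0.341).

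Of 20 tested genes for the control of lysosomes and the docking of mTORC1 on them (22 in the files), none was called by edgeR in any comparison, and 6 were positive after tunicamycin in WT and 10 in LKO. At an unadjusted p under 0.05, 4 (20%) were higher and 1 (5%) lower in WT, against 7.93% and 6.85% of all genes. In LKO 1 (5%) was higher, against 5.83% of all genes. Mitf, another transcription factor of the TFEB family, was 1.02 higher on the log2 scale in WT (SE 0.33, edgeR adjusted p = 0.160) and 0.71 higher in LKO (SE 0.28, edgeR adjusted p = 0.328). Rragd, a Rag GTPase, was 1.02 higher in LKO than in WT after tunicamycin (SE 0.40, edgeR adjusted p = 0.232).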

How the data were processed

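Liver RNA was sequenced in 14 libraries, given as polyadenylated RNA per the labels. The submitters' processing notes name Trimmomatic, STAR, Cufflinks and mm10, with roles and versions not given in the sources used here. Gene counts, as deposited by the authors in 3 value columns a library, are whole numbers of reads, and the column of the gene's own strand was used. The deposited FPKM values were made by the authors with Cufflinks-type column names, per the file headers. Of their names, 24075 occurred once and were used, and 277 that occurred more often were left out. No per-sample column was unused (0).

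Counts were fitted with edgeR 4.0.16 in R 4.3.3 (TMM, filterByExpr by group, quasi-likelihood, 4 group means, 9 residual degrees of freedom), after a check on simulated data. FPKM fits used limma 3.58.1 on log2(FPKM + 1), which understates changes of low genes. Log2 levels by sample used a prior count of 2. The common biological coefficient of variation was 0.155. The labels do not tie samples to named mice, so p-values measure the spread between these samples. Reads are not independent molecules, and precision was taken from that spread. Gene positions and promoter windows are RefSeq's, on GRCm38.p6, the assembly of mm10.

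The members and gene lists were chosen with earlier results of these data known. Fold changes are given for every member with an unadjusted p under 0.05 in a comparison, and CPM by sample for called members and for the member with the smallest p of each role and comparison, with Ctsc added after its values were seen. Of the further lysosome lists, 1 gene is not reported here and is outside their counts, calls included. Alternatives were other scalings (DESeq2 1.42.0 size factors, total counts), no filter, the DESeq2 test, unstranded counts, unsummed libraries, a replicate block, 2-group fits, each sample left out, and FPKM fits. Same-numbered samples of different groups correlated at -0.118 to 0.141 in their deviations from group means (median 0.022, against -0.221 to 0.202 for other numbers), so the numbers were not taken to pair samples.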

Additional observations from a re-analysis of the deposited data

Results flagged for a closer look

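A check for single far samples was made only in the 4 LKO tunicamycin samples, as the other groups had 3 samples. There, 7 of the 48 tested lysosome genes had 1 sample far from the other 3. Chance alone gives about 1 in 20. Replicate 3 was the far sample for 4 of them: Tfe3 stood at 6.22 CPM (the others at 5.20 to 5.21), Gaa at 19.2 (14.1 to 14.8) and Ids at 8.46 (6.12 to 6.41), all higher, and Lgmn at 19.2 (22.9 to 23.6), lower. Npc1 was highest in replicate 4, at 48.6 CPM (38.9 to 39.4), Neu1 highest in replicate 2, at 12.2 (7.49 to 8.15), and Gusb lowest in replicate 1, at 4.53 (6.51 to 6.83).

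Atp6v0c, which encodes the proteolipid that forms most of the proton pump's membrane ring, had 0 reads in every library in the gene counts. The deposited FPKM table listed it at 0.000457 to 8.02 FPKM, with a mean of 4.72, so its level was not given by the counts.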

How the results depend on the processing

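For the 35 named fold changes of 20 lysosome genes, 871 of 898 values under alternatives kept their direction and side of the threshold. The exceptions were 16 lost calls of Ctsl in WT, 7 gained calls (Lgmn, Ctsc, Grn and Smpd1), and Ctsz in WT, which reversed to -0.023, -0.027, -0.023 and -0.023 in the 4 FPKM fits, where the cause was not tested. The 1 lysosome gene called in WT after tunicamycin became 0 with total count scaling, with only the 2 groups fitted and in all 4 FPKM fits. It became 2 without a filter, where 289 of 16251 genes were called in all. With 1 sample left out it was 0 to 4, the 4 in the fit that called 615 of 9941 genes in all. The WT median of 0.147 became -0.044 with total count scaling (-0.177 over all genes) and 0.023 with a mean FPKM of at least 1 (-0.095 over all genes). It became 0.010 with log2(FPKM + 1), 0.004 with log2(FPKM + 0.1), and 0.010 without the LKO vehicle 2 column (an alternative chosen after seeing the data). Over all genes the median was 0.0 in each of these. With 1 sample left out the lysosome median was 0.058 to 0.197. For LKO against WT, the vehicle median of 0.043 became 0.152 with log2(FPKM + 0.1), against 0.0 over all genes. After tunicamycin, the 0 calls became 1 with total count scaling and without a filter, and 0 to 1 with 1 sample left out. The median of 0.068 became 0.218 with total count scaling, against 0.14 over all genes. It became 0.235 with log2(FPKM + 0.1), against 0.0, and 0.180 with a mean FPKM of at least 1, against 0.07. With 1 sample left out it was -0.044 to 0.134. The interaction median of -0.036 became 0.114 and 0.059 with total count scaling and log2(FPKM + 0.1), against 0.127 and 0.0 over all genes. With the replicate block, 1 lysosome gene was called in WT, with Ctsl at an edgeR adjusted p of 0.0457, and 0 in the other comparisons. Genes with few reads, such as Gla (4 to 25 a sample) and Cd63 (4 to 40), are the least precise.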
